A study of Mus musculus with 4 samples.

Results

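The transcripts described here are 9 genes of transforming growth factor beta (TGF-beta) signalling: the ligands Tgfb1, Tgfb2 and Tgfb3, the receptors Tgfbr1, Tgfbr2 and Tgfbr3, the signal carrier Smad3, its inhibitor Smad7, and Tgfbi, which encodes a secreted matrix protein. They were chosen by symbol, not by level, and each symbol had a single row of usable status among the 35604 gene rows of each of 2 deposited tables. The study measured by RNA-seq how transcript levels differ in Nf2-deficient mouse Schwann cells exposed to NXD30001, an HSP90 inhibitor per the title of the series. Every library came from ESC-FC1801, 1 line of embryonic Schwann cells of FVB/N background whose floxed Nf2 alleles (Nf2Flox/Flox) were deleted in culture by a Cre adenovirus, so the untreated libraries lack Nf2 in these cells too. Cultures in serum-free medium with neuregulin and forskolin were exposed for 24 h to DMSO or to NXD30001 at 1 µM. Tumours of these cells came from mice dosed 3 times weekly over 4 weeks with vehicle or with NXD30001 at 100 mg/kg. The age and strain of the host mice, and whether a tumour library pools animals, are not given in the sources used here. Each of the 4 groups has 1 library, so no value has a replicate error and no test was made. A gene is called higher or lower only as a description of the pair of libraries measured.

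TGF-beta ligands are secreted as latent dimers that are tethered to matrix proteins and released by integrins, thrombospondin or proteases. An active dimer binds the receptor kinase TGFBR2, which recruits and activates the kinase TGFBR1, and TGFBR1 then phosphorylates SMAD2 and SMAD3, which enter the nucleus with SMAD4. TGFBR3, also called betaglycan, is a coreceptor that presents ligand, above all TGFB2, which binds TGFBR2 weakly by itself. SMAD7 blocks TGFBR1 and is itself induced by the pathway, as is TGFBI. In peripheral nerve, Schwann cells both make and receive TGF-beta, which is known to affect their proliferation and to oppose myelin formation in culture.

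Levels are in FPKM, fragments per kilobase of transcript, scaled to the mapped fragments of the library, so genes can be compared within a library. Differences are treated minus untreated in log2(FPKM + 1), which understates the change of low genes. A gene was compared where it reached 1 FPKM in either library of a table, which held for 12676 genes in culture and 15550 in tumours, and it was counted as different from 2-fold upward on that scale. The depth of a library cannot be read from FPKM, but genes seen with a single fragment per library put the treated library at 1.05 times the depth of the untreated one in culture (42 genes) and at 1.19 times in tumours (64 genes). The median difference of all compared genes was -0.25 in culture and -0.03 in tumours. The error of the authors' model, taken from their fold and statistic, had a median of 0.80 (SE, log2) over compared genes in culture and 0.38 in tumours. Of 10 Schwann cell markers, 8 reached 1 FPKM in each table, while S100b stayed below 1 FPKM in all 4 libraries and Gfra3 was listed at 0 in both cultures.

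The 250 bases before the annotated start are shown for the 3 genes that differed by at least 2-fold in either table, Tgfb2, Tgfbi and Smad3, and for Tgfb1 as the ligand that contrasts with Tgfb2. They are RefSeq sequences of build GRCm38.p6, 5′ to 3′ in the direction of the gene, and capitals mark matches on either strand to the motifs named after them. RefSeq windows were at hand for 6 of the 9 genes, not for Tgfb3, Tgfbr3 and Smad7.
Tgfb1, chr7:25686752-25687001, plus strand: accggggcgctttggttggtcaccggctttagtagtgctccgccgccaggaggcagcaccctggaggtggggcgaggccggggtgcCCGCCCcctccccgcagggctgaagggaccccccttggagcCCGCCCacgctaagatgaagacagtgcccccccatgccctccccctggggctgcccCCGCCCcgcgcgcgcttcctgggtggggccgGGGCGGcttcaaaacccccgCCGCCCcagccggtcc
Tgfb2, chr1:186705990-186706239, minus strand: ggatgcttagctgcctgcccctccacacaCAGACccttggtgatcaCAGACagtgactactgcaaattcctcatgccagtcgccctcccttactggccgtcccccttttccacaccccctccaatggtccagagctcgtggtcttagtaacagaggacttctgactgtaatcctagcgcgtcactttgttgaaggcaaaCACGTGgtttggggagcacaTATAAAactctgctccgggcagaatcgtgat
Tgfbi, chr13:56609336-56609585, plus strand: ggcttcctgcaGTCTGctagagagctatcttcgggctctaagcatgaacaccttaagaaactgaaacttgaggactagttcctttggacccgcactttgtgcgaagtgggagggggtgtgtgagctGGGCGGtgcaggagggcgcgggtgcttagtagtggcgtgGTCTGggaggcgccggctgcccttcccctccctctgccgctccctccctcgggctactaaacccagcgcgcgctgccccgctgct
Smad3, chr9:63757995-63758244, minus strand: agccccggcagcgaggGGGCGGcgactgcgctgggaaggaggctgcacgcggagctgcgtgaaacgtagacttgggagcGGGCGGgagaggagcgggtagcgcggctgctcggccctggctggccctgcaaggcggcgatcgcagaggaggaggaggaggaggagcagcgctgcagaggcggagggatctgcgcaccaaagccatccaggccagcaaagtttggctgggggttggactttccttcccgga
Counting the base before the start as -1, the Tgfb2 window held a TATA box (TATAAA) from -31 and an E-box (CACGTG) from -51, which 12.4% and 6.02% of 32851 windows of the same length held. It also held 2 SMAD boxes (CAGAC), from -221 and -204, as did Tgfbi, from -239 and -85. This 5-base motif was present in 42.2% of all windows. The GC box (GGGCGG) was found 5 times for Tgfb1, 2 times for Smad3, 1 time for Tgfbi and not for Tgfb2, against 32.7% of windows with at least 1. None of the 4 windows held an AP-1 site (TGAGTCA or TGACTCA, 4.46% of windows), a pair of heat shock element units (GAANNTTC or TTCNNGAA, 12.8%) or the SMAD palindrome (GTCTAGAC, 0.167%). No matched motif overlapped another. These are letter matches only, and the tables do not show which start the cells used.

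In culture, the ligand gene Tgfb2 was far higher with NXD30001 and the matrix gene Tgfbi far lower. Of the 9 genes, 7 reached the minimum level. Of these, 1 was at least 2-fold higher (Tgfb2) and 1 at least 2-fold lower (Tgfbi), beside 12.6% and 24.8% of all compared genes. Against shares of that size, 1 gene of 7 in each direction is no result about these genes as a group. The authors' deposited table called 1 of the 7, Tgfb2, where it called 9.89% of all compared genes.

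**Figure D1:**
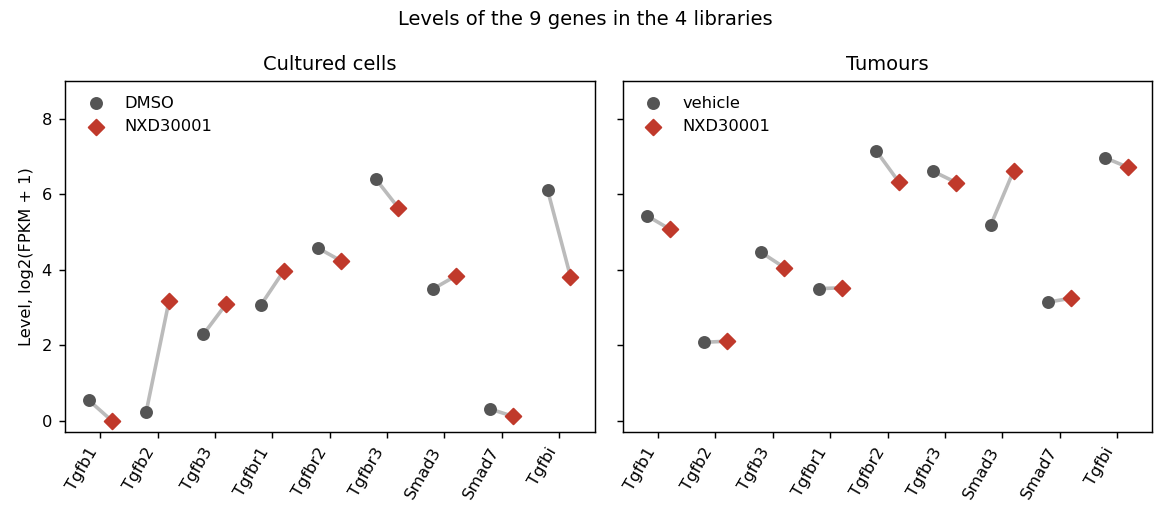
Level of each gene in log2(FPKM + 1), with the untreated library as a circle and the treated library as a diamond, in cultured cells (left) and tumours (right). In culture Tgfb2 goes from 0.170 to 8.05 FPKM and Tgfbi from 68.3 to 13.1 FPKM, and in tumours Smad3 goes from 35.3 to 97.7 FPKM. The tables were normalized separately, so heights are comparable within a panel only.

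Tgfb2 (ENSMUSG00000039239, chromosome 1 from 188447529 to 188529868, mm9) stood at 0.170 FPKM in DMSO cells and at 8.05 FPKM in treated cells. The untreated level lay above 2.65% of compared genes and the treated level above 48.6%. Because the DMSO level was below the minimum, Tgfb2 entered the comparison through the treated library alone. A low untreated position and an upward direction follow from that filter. The difference was 2.95, and 190 of the 12676 compared genes differed upward by as much. The plain ratio was 47.3, with a 95% range of 11.2 to 199 from the authors' error, and the q in the authors' deposited table was 1.46e-05. A level so near 0 rests on few fragments, and the difference was 4.92 with 0.1 FPKM added in place of 1 and 1.34 with 5 FPKM added. The locus is also given for a small nucleolar RNA row, SNORA70, which was listed at 0 in all 4 libraries.

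Tgfb3 (ENSMUSG00000021253, chromosome 12 from 87397755 to 87419991) stood at 3.89 FPKM in DMSO cells and at 7.58 FPKM in treated cells. Its difference was 0.81, and the plain ratio of 1.95 had a 95% range of 0.585 to 6.48 in the authors' error, which includes 1. Tgfb1 (ENSMUSG00000002603, chromosome 7 from 26472574 to 26490095) was near the floor, 0.455 FPKM in DMSO cells and listed at 0 in treated cells, below the minimum for a comparison. The 3 ligands summed to 4.52 FPKM in DMSO cells and to 15.6 FPKM in treated cells. The make-up of the sum differed as well. Tgfb3 held 86.2% of the sum with DMSO, Tgfb1 10.1% and Tgfb2 3.77%, while with NXD30001 Tgfb2 held 51.5% and Tgfb3 48.5%. In DMSO cells Tgfb3 led the ligands. Tgfb1 and Tgfb2 were both below 1 FPKM there, so their order and their shares rest on few fragments. In treated cells Tgfb2 and Tgfb3 stood side by side at 8.05 and 7.58 FPKM.

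**Figure D2:**
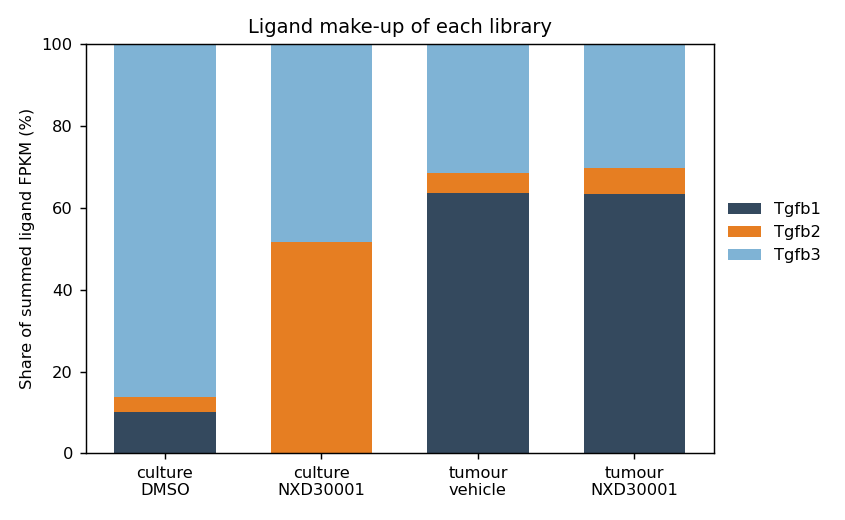
Share of the summed FPKM of Tgfb1, Tgfb2 and Tgfb3 held by each ligand, in percent, 1 bar per library. Tgfb2 holds 3.77% of the DMSO bar and 51.5% of the NXD30001 bar in culture, while Tgfb1 holds 63.6% and 63.4% of the tumour bars.

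Among the receptors, the coreceptor gene Tgfbr3 (ENSMUSG00000029287, chromosome 5 from 107535589 to 107718648) was the most abundant in cultured cells, with 84.2 FPKM in DMSO cells and 48.7 FPKM in treated cells. Its DMSO level lay above 86.7% of compared genes. Tgfbr2 (ENSMUSG00000032440, chromosome 9 from 115993415 to 116084383) was at 22.8 and 17.8 FPKM, and Tgfbr1 (ENSMUSG00000007613, chromosome 4 from 47366094 to 47427803) was the lowest of the 3, 7.35 FPKM in DMSO cells and 14.7 FPKM in treated cells. The 3 receptors thus lay closer together in treated cells: Tgfbr2 was at 3.10 times the level of Tgfbr1 with DMSO and at 1.21 times with NXD30001, and Tgfbr3 at 11.5 and 3.32 times. The differences were -0.78 for Tgfbr3, -0.34 for Tgfbr2 and 0.91 for Tgfbr1, and the authors' error on the log2 ratio was 0.66, 0.62 and 0.78. The authors' deposited table has no call for any of the 3. The Tgfbr3 locus is given for another row as well, AC133897.1 (19.4 FPKM in DMSO cells, 1.17 FPKM in treated cells), so reads of the pair are not assigned with certainty.

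The size of the smaller differences depends on the scaling of the culture table, whose compared genes were lower by 0.25 at the median. Relative to that median the difference was 1.06 for Tgfb3 and 1.16 for Tgfbr1, both past 2-fold, and -0.09 for Tgfbr2. None of the compared genes of the 9 took another sign. Among all compared genes at least 2-fold different, 66.3% were lower as deposited, 50.8% after centring on the median and 55.9% after scaling to the upper quartile. Tgfb2 and Tgfbi kept their direction and stayed past 2-fold under each scaling, at 3.20 and -2.05 after centring.

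Of the genes downstream of the receptors, Tgfbi (ENSMUSG00000035493, chromosome 13 from 56710947 to 56740711) stood at 68.3 FPKM in DMSO cells and at 13.1 FPKM in treated cells, and its difference was -2.30. The treated level was 19.2% of the untreated one, with a 95% range of the ratio from 0.0674 to 0.547 in the authors' error. Even so, 759 compared genes differed downward by as much or more, and the authors' deposited table did not call Tgfbi, with a q of 0.0503 against a largest called q of 0.0499. Smad3 (ENSMUSG00000032402, chromosome 9 from 63494574 to 63605801) stood at 10.2 FPKM in DMSO cells and 13.3 FPKM in treated cells, and its difference of 0.35 lay inside its error of 0.74. Smad7 (ENSMUSG00000025880, chromosome 18 from 75527183 to 75555589) was near the floor in both cultures, at 0.237 and 0.0821 FPKM, and was not compared. Thus, in cultured cells, the receptors and Smad3 were present while Tgfb1 and Smad7 were below 1 FPKM with and without NXD30001.

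**Figure D3:**
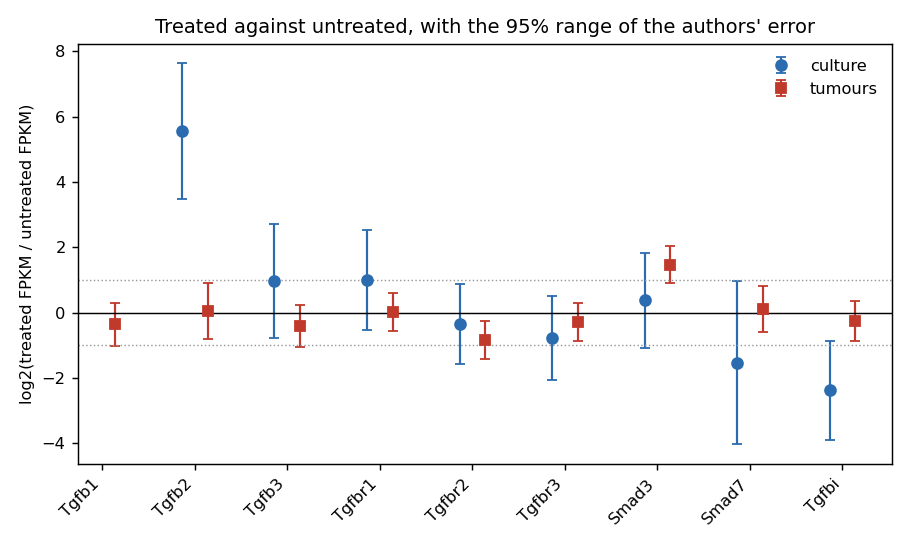
Log2 ratio of treated to untreated FPKM for each gene in culture (circles) and tumours (squares). Bars are the 95% range of the error implied by the authors' fold and statistic, which covers no biological spread, and dotted lines mark 2-fold. Tgfb1 in culture is left out because its treated level is listed at 0. In culture the bars of Tgfb2 and Tgfbi do not reach 0, and in tumours those of Smad3 and Tgfbr2 do not.

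In tumours, Smad3 was the single gene of the 9 that differed by 2-fold or more, and it was higher in the treated tumour. All 9 genes reached the minimum level. The count of 1 higher and 0 lower stands beside 7.32% and 6.93% of all compared genes. The authors' deposited table called 1 of the 9, Smad3, and 5.59% of all compared genes, so the share called was not far from that of other genes. Smad3 stood at 35.3 FPKM in the vehicle tumour and at 97.7 FPKM in the treated one. The difference was 1.44 and the plain ratio 2.77, with a 95% range of 1.87 to 4.10 in the authors' error. The q in the authors' deposited table was 4.23e-05, and 585 of 15550 compared genes differed upward by as much. In the vehicle tumour Smad3 lay above 70.0% of compared genes and in the treated tumour above 89.1%.

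A tumour piece holds host cells beside Schwann cells, and in such bulk RNA fewer cells of a type cannot be told apart from less RNA per cell. Beside Smad3, all 8 Schwann markers at the minimum level were at least 2-fold higher in the treated tumour, and their list summed to 153 FPKM with vehicle against 549.9 FPKM in the treated tumour. Sox10, a transcription factor of the lineage, went with them (47.0 and 140 FPKM), as did the myelin gene Mbp (29.3 and 69.6 FPKM). Of the pericyte and smooth muscle list, 3 of 4 genes at the minimum level were higher, with a sum of 115 and 244 FPKM. That list is led by Acta2 (82.0 and 186 FPKM) and Pdgfrb (20.9 and 45.9 FPKM), which make up most of the sum. Other genes of the list went the other way: Cspg4 was slightly lower (8.90 and 8.25 FPKM). Cnn1, Myh11 and Des were below 1 FPKM in both tumours and lower in the treated one. In culture, where Smad3 differed by 0.35, 2 of 8 Schwann markers were above 0, among them Mbp (12.1 and 88.1 FPKM). The part of cell make-up in the Smad3 difference was not tested.

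The other 8 genes differed less between the tumours. Tgfbr2 was the most abundant of the 9 with vehicle, at 142 FPKM and above 92.4% of compared genes, and stood at 78.9 FPKM in the treated tumour. Its difference of -0.84 did not reach 2-fold, its ratio was 0.557 with a 95% range of 0.372 to 0.836, and the authors' deposited table gave it a q of 0.128 and no call. Tgfbr3 (96.3 and 78.3 FPKM) and Tgfbr1 (10.3 and 10.5 FPKM) had differences of -0.30 and 0.02. Tgfbr1 was the lowest of the 3 receptors in both tumours, as it was in both cultures. Tgfbr2 stood at 13.8 times the level of Tgfbr1 with vehicle and 7.53 times with NXD30001.

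Tgfb1 led the ligands in both tumours, with 42.2 FPKM under vehicle and 32.8 FPKM under treatment. It was followed by Tgfb3 (21.0 and 15.7 FPKM) and Tgfb2 (3.22 and 3.30 FPKM). The order of the ligands was the same in both. The ligand sum was 66.4 FPKM under vehicle and 51.8 FPKM under treatment, and its make-up hardly differed, with Tgfb1 at 63.6% and 63.4%, Tgfb3 at 31.6% and 30.2% and Tgfb2 at 4.85% and 6.38%. The differences were -0.35, -0.40 and 0.03 for Tgfb1, Tgfb3 and Tgfb2, and the 95% range of each ratio included 1 (errors 0.33, 0.33 and 0.44). Tgfbi (124 and 104 FPKM) had a difference of -0.25 and an error of 0.31. Smad7 (7.83 and 8.47 FPKM) had a difference of 0.10 and an error of 0.36.

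Markers of other cell types differed between the tumours as well. Each of the 8 endothelial genes was lower after treatment (sum 123 and 68.3 FPKM), led by Egfl7 (40.6 and 32.6 FPKM) and Pecam1 (24.8 and 10.5 FPKM). The 8 macrophage markers found were all lower, with a sum of 1149 and 912 FPKM, led by C1qa (491 and 434 FPKM) and C1qb (279 and 247 FPKM). Of the fibroblast list, 6 of 8 were lower, and it summed to 4127 and 3348 FPKM. Its leading genes were Col1a1 (1576 and 1155 FPKM) and Col3a1 (1141 and 1063 FPKM). The cultured cells also had Col1a1 (346 and 711 FPKM) and Col3a1 (653 and 187 FPKM). Of 5 platelet markers, 3 reached the minimum and were lower, Pf4 (55.6 and 21.5 FPKM) and Itga2b (22.4 and 19.8 FPKM) among them. The mast cell list summed to 11.9 and 41.5 FPKM, with 5 of 6 higher, led by Tpsab1 (4.10 and 19.6 FPKM) and Tpsb2 (3.13 and 10.2 FPKM). Among 7 T cell markers, Cd4 (1.13 and 0.911 FPKM) reached 1 FPKM, as did Lck (0.791 and 1.04 FPKM), whose row has status LOWDATA and was not compared. Cd2, Cd3e and Cd8a were listed at 0 in both tumours. The part of these cells in the lower Tgfbr2 and Tgfb1 levels of the treated tumour was not tested.

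**Figure D4:**
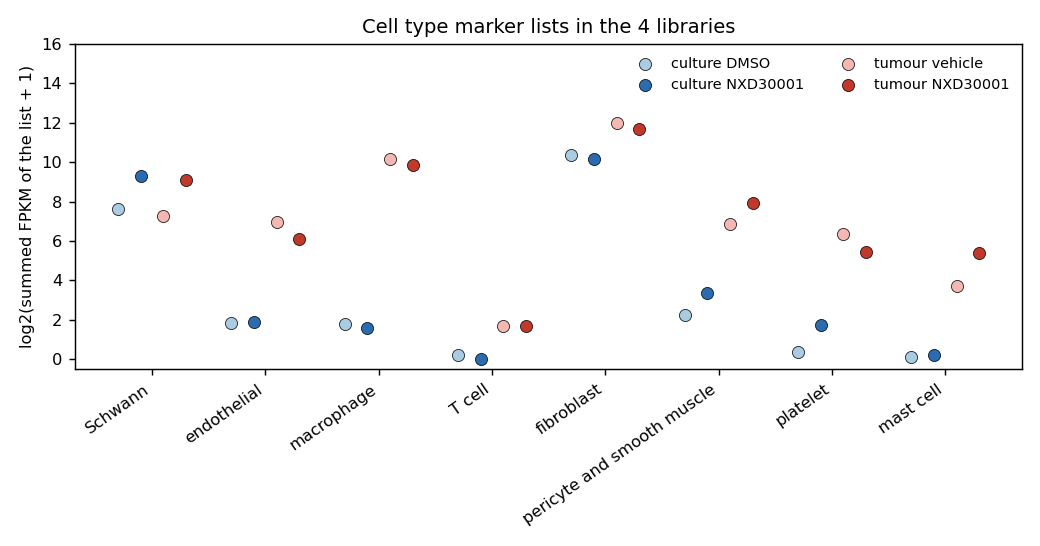
Summed FPKM of each cell type marker list, as log2(sum + 1), in the 4 libraries. The endothelial, macrophage, platelet and mast cell lists sum to at most 2.68 FPKM in culture and to 11.9 FPKM or more in tumours. The tables were normalized separately, so culture and tumour sums are not on a common scale. The Schwann list sums to 153 FPKM in the vehicle tumour and 549.9 FPKM in the treated tumour.

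Set beside culture, the untreated tumour held the pathway in another order. Because the tables were normalized separately, only positions within a library are compared. These positions are among the 12676 compared genes of culture and the 15550 of tumours, which are different sets. In culture Tgfb1 and Smad7 were below the minimum and so outside the set, and Tgfb2 entered it through the treated library alone. The low DMSO positions of these genes follow from that filter. Tgfb1 lay above 3.87% of compared genes in DMSO cells and 74.1% in the vehicle tumour, and Smad7 above 2.92% and 33.7%. Tgfb2 lay above 2.65% and 19.1%, Tgfb3 above 28.3% and 56.7%, Smad3 above 47.6% and 70.0%, and Tgfbr2 above 64.6% and 92.4%. By contrast the positions of Tgfbr3 (86.7% and 88.4%), Tgfbr1 (40.7% and 39.5%) and Tgfbi (83.9% and 91.1%) were nearer to each other. In the DMSO cells the macrophage, endothelial and platelet lists summed to 2.44, 2.61 and 0.290 FPKM. Nearly all of the first 2 sums came from Cd68 (2.32 FPKM) and Egfl7 (2.47 FPKM), which were above 1 FPKM, while 5 of 8, 3 of 8 and 3 of 5 genes of the lists were at 0 in both cultures. The part of host cells in the Tgfb1 level of tumours was not tested.

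Further genes of the pathway were grouped into lists by role, and paired values in parentheses give the untreated library first. Of all compared genes, 12.6% were at least 2-fold higher and 24.8% lower in culture, against 7.32% and 6.93% in tumours. The authors' calls covered 9.89% and 5.59%. Counts per list, here and in the following paragraphs, are to be read beside these shares. Of 17 genes that store, tether or activate the latent ligand, 11 reached the minimum in culture, with a median difference of -0.52 beside -0.25 for all genes. That gap depended on the filter. The list median was -0.22 beside -0.23 without shared loci, -0.025 beside -0.13 with no minimum and -0.61 beside -0.22 with a minimum of 5 FPKM. Fbn1, the microfibril protein fibrillin 1 that anchors latent complexes, and Thbs1, thrombospondin 1, which can activate latent TGF-beta, were at least 2-fold higher (Fbn1 0.356 and 33.1 FPKM, Thbs1 8.32 and 45.3 FPKM). Itgb3, an integrin subunit, and Ltbp1, a latent TGF-beta binding protein, were at least 2-fold lower (Itgb3 7.90 and 0.628 FPKM, Ltbp1 7.42 and 2.07 FPKM). The authors' deposited table called these 4. In tumours 15 genes of the list were compared (median -0.10). That median was -0.29 with a minimum of 5 FPKM and -0.31 without shared loci. Ltbp4 and Itgb8 were at least 2-fold higher (Ltbp4 185 and 381.7 FPKM, Itgb8 2.38 and 5.81 FPKM), although the error implied for Ltbp4 was 2.96. Ltbp2, Fbn1 and Itgb3 were at least 2-fold lower (Ltbp2 15.0 and 3.14 FPKM, Fbn1 48.1 and 22.4 FPKM, Itgb3 6.65 and 2.80 FPKM). The authors' deposited table called Itgb8 and the integrin subunit gene Itgav (99.5 and 161 FPKM) as higher and Ltbp2 and Fbn1 as lower. Fbn1, Ltbp1 and Itgav each share their locus with another row.

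Genes that TGF-beta is known to induce lay in both directions. Of 22 listed, 11 were compared in culture with a median of -0.60 beside -0.25 for all genes. The list median was -0.48 beside -0.23 without shared loci, -0.058 beside -0.13 with no minimum and -0.73 beside -0.22 with a minimum of 5 FPKM. At least 2-fold lower were Bhlhe40, a transcriptional repressor (53.3 and 1.53 FPKM), Postn, which encodes the matrix protein periostin (27.8 and 0.941 FPKM), Fn1, fibronectin (12.6 and 0.437 FPKM), and Klf10, an early response factor (34.4 and 8.94 FPKM). At least 2-fold higher were Snai2, a transcription factor (2.55 and 13.4 FPKM), Col1a1, a collagen chain, and Tagln, an actin-binding protein (listed at 0 in DMSO cells, 1.22 FPKM in treated cells). The difference of Col1a1, 1.04, lay inside its implied error of 1.51. Of the lower genes, 3 had a call in the authors' deposited table (Bhlhe40, Postn and Fn1), and of the higher ones none. Ctgf and Junb stayed below 1 FPKM in both cultures. Timp1 had status FAIL in culture. In tumours 21 genes were compared, with a median of -0.22 beside -0.03 for all genes. Acta2 was at least 2-fold higher, and Ltbp2, which is in the storage list too, and Fn1 (1596 and 660 FPKM) were at least 2-fold lower. The authors' deposited table called these genes in tumours, and also Col1a1 (1576 and 1155 FPKM), which was lower but within 2-fold. In tumours Ctgf, connective tissue growth factor (212 and 118 FPKM), was lower and Junb (70.7 and 104 FPKM) was higher, neither past 2-fold. The loci of Bhlhe40, Fn1, Tagln and Ctgf are each given for another row.

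**Figure D5:**
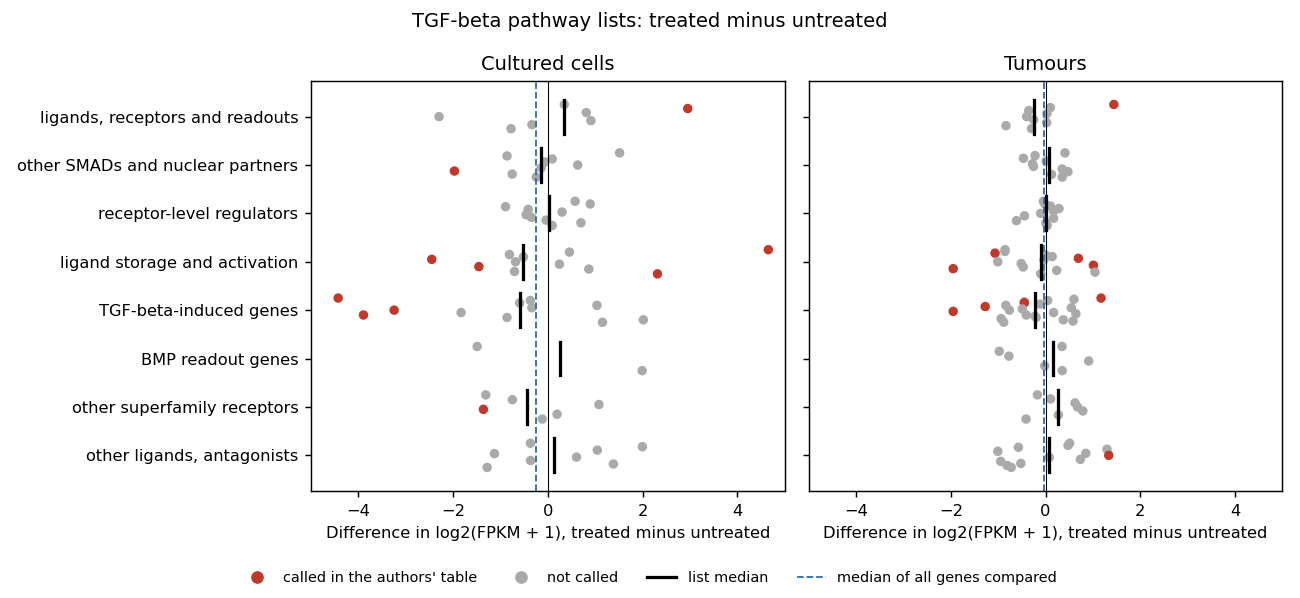
Difference in log2(FPKM + 1), treated minus untreated, for each compared gene of the 8 lists in culture (left) and tumours (right). Vertical bars are list medians, the dashed line is the median of all compared genes (-0.25 and -0.03), and filled red points are genes called in the authors' deposited table. The 9 genes described here form the top row, with medians of 0.35 and -0.25.

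Of 11 other SMADs and nuclear partners, 9 were compared in culture. Their median was -0.14 as deposited and of the other sign under both scalings, 0.11 after median centring and 0.08 after upper quartile scaling. The corepressor gene Ski was at least 2-fold higher (7.62 and 23.6 FPKM) and Tgif1, another corepressor, at least 2-fold lower (49.2 and 11.8 FPKM) and called in the authors' deposited table. Smad2, the partner of Smad3 (80.1 and 76.6 FPKM), and the common partner Smad4 (34.5 and 53.9 FPKM) were within 2-fold. In DMSO cells Smad2 thus exceeded Smad3 (10.2 FPKM), whereas in tumours Smad2 (20.9 and 21.1 FPKM) was below Smad3 (35.3 and 97.7 FPKM). Smad4 in tumours had 144 and 118 FPKM. None of the 10 genes of this list compared in tumours was 2-fold different, with a median of 0.07. The largest differences there were 0.47 for Tgif1 and -0.47 for Smad1. Among regulators at the receptor, none was 2-fold different in either table (10 and 11 compared, medians 0.03 and 0.01, each below 0 under another filter). Eng, of status FAIL in both tables, was left out. The largest differences of the list were -0.89 for Fkbp1a, which encodes a protein that holds TGFBR1 inactive, and 0.89 for Cd109, a coreceptor that dampens signalling, in culture. In tumours they were -0.61 for Strap, a SMAD7 partner, and -0.44 for Smurf1, a ubiquitin ligase recruited by SMAD7.

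The branch of bone morphogenetic proteins (BMP) and activins was also measured. Of its receptors, Acvr2a was at least 2-fold higher in culture (82.1 and 174 FPKM), and Acvr1 (10.1 and 3.47 FPKM) and Acvrl1 (7.51 and 2.31 FPKM) were at least 2-fold lower, with a median of -0.43 over 6 compared. Acvrl1 had a call in the authors' deposited table. In tumours none of 7 was 2-fold different (median 0.27, and 0.11 without shared loci), Acvrl1 (47.7 and 83.1 FPKM) and Acvr2b (1.55 and 3.06 FPKM) differing most. Of the BMP readout genes, 2 of 7 were compared in culture, Id4 (3.35 and 16.3 FPKM) and Id2 (6.04 and 1.50 FPKM). In tumours 6 were compared, 3 above and 3 below 0. Their median of 0.16 had no stable sign and was -0.77 with a minimum of 5 FPKM and -0.21 without shared loci. Id3 (43.6 and 82.7 FPKM) and Id1 (13.0 and 6.10 FPKM) differed most. Of 18 other ligands and antagonists, 8 were compared in culture, 4 above and 4 below 0. Their median of 0.12 was -0.75 with a minimum of 5 FPKM and -0.37 without shared loci. Bmp4 and its antagonist Nog were listed at 0 in DMSO cells and reached 2.98 and 1.61 FPKM in treated cells, and Bmp6 (1.40 and 3.95 FPKM) was at least 2-fold higher. Bmp7 (6.73 and 2.54 FPKM) and Twsg1 (34.5 and 13.6 FPKM), a modulator of BMP, were at least 2-fold lower. In tumours 13 were compared (median 0.08). Fstl3, an activin antagonist (6.73 and 18.5 FPKM), had a call in the authors' deposited table. Bmp7 (0.0561 and 1.60 FPKM) was at least 2-fold higher and Chrd, a BMP antagonist (1.33 and 0.159 FPKM), at least 2-fold lower. The error implied for Chrd was 5.82, so its difference is not resolved. The loci of Id3, Id4, Acvr2a, Acvrl1, Bmp4, Bmp6, Fstl3 and Chrd are each given for another row.

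Finally, genes with the most similar pair of differences were sought among up to 3089 genes with 10 FPKM or more in at least 1 library of each table and a locus of their own, by Euclidean distance over 2 values, the culture and the tumour difference. Nearest to Tgfb2 were Syvn1 and Sgms2, at distances of 0.12 and 0.13, and 12 genes lay within 0.5. Nearest to Tgfbi were Hip1 and Prcp, at 0.07 and 0.10, with 74 genes within 0.5, and nearest to Smad3 were Kcna6 and Cd59a, at 0.13 and 0.25, with 11 genes within 0.5. The other genes sat in crowded parts of the plane, with 143 genes within 0.5 of Tgfbr2 (nearest Svil and Scamp1), 463 of Tgfb3 (Ube4a and Mtmr6), 511 of Tgfbr3 (Spin1 and Scap) and 517 of Tgfbr1 (Rnh1 and Rbx1). Tgfb1 and Smad7, below 1 FPKM in culture, were not included. The measure rests on 1 difference per table and has no replicate error.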

How the data were processed

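Libraries were made with an Illumina protocol from RNA of cultured cells and tumours, per the labels. Build mm9 and the tools CASAVA, TopHat 1.2.0, Cufflinks 1.0.2 and Cuffdiff are named, without roles, by the submitters' processing notes. The sources used here do not state strandedness. The authors deposited 2 gene tables with FPKM of an untreated and a treated library, a p-value, a fold ratio, and, used as scores, the natural log of the fold, a statistic and a q-value per gene. Uncalled q-values reached 2.05 and the call threshold was 0.05. Those values compare 2 libraries, not conditions.

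Columns and groups followed titles, descriptions and treatment labels, since the sample type label calls all 4 samples cultured cells. Rows of status FAIL (705 in culture, 347 in tumours) and LOWDATA (61 and 449) were left out. Differences used a pseudocount of 1 FPKM and a minimum of 1 FPKM in either library. The implied error is the authors' log fold divided by their statistic, in log2, and 95% ranges are 1.96 errors wide on each side. Locus starts were raised by 1, because end minus start equalled the GENCODE M21 gene length in 10580 of 19955 single-gene loci and fell 1 short in 268. Promoter windows are from RefSeq (GRCm38.p6) and no coordinates were converted. The counting step was checked on simulated tables with 4-fold changes and no noise, which says nothing about genes near the floor. Python 3.11.15, pandas 2.3.3 and numpy 2.4.6 were used.

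The 9 genes, the lists and the alternatives were chosen with earlier results of these data known. Named genes were the 9, up to 2 per pathway list and table with the largest difference, all genes in counts of 5 or fewer, up to 2 per marker list with the highest untreated level, and the 2 nearest in likeness. Genes named for their role alone (Smad2, Smad4, Ctgf, Junb, S100b, Gfra3) or to complete a marker list (Cspg4, Cnn1, Myh11, Des) were added after their values were seen. Some listed genes are not reported here by name.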

Additional observations from a re-analysis of the deposited data

Results flagged for a closer look

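Tgfb3 lay in opposite directions in the 2 settings, higher with NXD30001 in culture (difference 0.81) and lower in the treated tumour (-0.40). Fbn1 was at least 2-fold different in both, at 4.65 in culture and -1.07 in tumours, as was Bmp7, at -1.13 and 1.30. Each rests on 1 library per group, the settings differ in dose, time and cell make-up, and the difference between them was not tested. The errors implied by the authors' statistic were 0.89 and 0.33 for Tgfb3, 0.74 and 0.27 for Fbn1 and 0.83 and 1.57 for Bmp7 (log2), and Bmp7 was below 2 FPKM in both tumours. Fbn1 in culture and Bmp7 in tumours entered the comparison through the treated library alone, which fixes an upward direction.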

How the results depend on the processing

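The differences of Tgfbi in culture and Smad3 in tumours stayed past 2-fold under all 7 alternatives, from -2.37 to -2.02 and from 1.35 to 1.47. Tgfb2 in culture stayed past 2-fold under the 6 that could be run for it, from 1.34 to 4.92. No difference compared for the 9 genes had another sign under an alternative, which leaves out Tgfb1 and Smad7 in culture. Smad7 there, below the minimum, was at -0.19 as deposited and 0.06 relative to the median of all genes. The count of genes at least 2-fold different in culture was 4 instead of 2 after median centring and after upper quartile scaling, which add Tgfb3 and Tgfbr1. It was 1 without genes that share a locus, which leaves out Tgfb2. In tumours it stayed at 1 under all 7. The count over all genes was 4752 in culture and 2216 in tumours. It was 2602 and 875 with a pseudocount of 5 FPKM and 2819 and 1087 without shared loci, and 1409 in tumours with a minimum of 5 FPKM. The median over all other pathway genes in culture was -0.29, against -0.19 with a pseudocount of 5 FPKM, -0.065 with no minimum (genes at 0 in both libraries left out), -0.042 after centring and -0.074 after upper quartile scaling. Medians of single lists that took the other sign under an alternative were those of other SMADs in culture (-0.14, against 0.11 after centring and 0.08 after upper quartile scaling), of BMP readouts in culture (0.25, against -0.29 with no minimum and -1.49 without shared loci) and in tumours (0.16, against -0.018 with no minimum, -0.77 with a minimum of 5 FPKM and -0.21 without shared loci), and of other ligands and antagonists in culture (0.12, against -0.75 with a minimum of 5 FPKM and -0.37 without shared loci). So did medians near 0: receptor regulators in culture (0.025, against -0.039 with no minimum, with a minimum of 5 FPKM and without shared loci) and in tumours (0.0059, against -0.032 without shared loci), and all other pathway genes in tumours (-0.018, against 0.012 after centring and 0.0014 after upper quartile scaling). Other list medians in culture kept their sign but not their size. With no minimum, that of ligand storage and activation was -0.025 instead of -0.52. Likewise, that of TGF-beta-induced genes was -0.058 instead of -0.60 and that of other superfamily receptors -0.12 instead of -0.43. In tumours, the median of ligand storage and activation was -0.29 with a minimum of 5 FPKM and -0.31 without shared loci, instead of -0.10. The tumour median of other superfamily receptors was 0.11 without shared loci instead of 0.27. With 0.1 FPKM added to each ligand, Tgfb1 held 11.5% of the ligand sum in DMSO cells instead of 10.1%. Tgfb1 and Smad7 in culture lie too near 0 for a comparison. No paired analysis was possible because each group has 1 library.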
